A study of Mus musculus with 16 samples.

Results

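Open chromatin was compared between 2 sorted populations of mouse CD8+ T cells, one positive and one negative for the LC3-GFP signal, in the in vitro arm of an assay for transposase-accessible chromatin with sequencing (ATAC-seq). All peaks of the deposited in vitro peak table were used, grouped by the library named on each row: 223740 peaks of the 528384 ATAC peaks in the series. The positive libraries held 63761 and 53869 peaks and the negative libraries 56476 and 49634 peaks, so 4 of the 16 libraries of the series form the comparison. The cells were purified T cells from Pmel-LC3-GFP-RFP mice, which had spent 3 days in culture with IL2 (100 IU/ml) and activating antibodies against CD3 (2 µg/ml) and CD28 (2 µg/ml). Both populations had carbon monoxide for 24 h before they were sorted, and untreated cells are not part of this comparison. The sources used here do not give the age or sex of the mice, or whether the 2 libraries of a population came from separate mice or cultures, so spread between libraries may be technical.

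Pmel T cells carry a transgenic T cell receptor that recognises a melanocyte protein also found on B16 melanoma. LC3 is the protein that autophagy attaches to the membrane of the forming autophagosome. In reporters that join LC3 to a green and a red protein, the green signal is lost in the acidic lysosome while the red persists, so a GFP gate sorts cells by a balance of reporter synthesis and autophagic turnover. In ATAC-seq the Tn5 transposase inserts adapters into DNA that nucleosomes leave accessible, and a peak caller marks places where the reads pile up above their surroundings. Promoters of active genes are open in most cell types, while distal elements are open mainly in the cell types that use them.

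Overlapping peaks of the 4 libraries were joined into 73648 regions. A region was called positive-only when both positive libraries and neither negative library had a peak in it, negative-only in the opposite case, and shared when all 4 libraries had one. There were 5911 positive-only regions (8.03% of all regions), 2448 negative-only regions (3.32%) and 39655 shared regions (53.8%). Regions at B cell genes were often positive-only, and regions at T cell receptor genes were more often negative-only than positive-only.

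The starts of 9 genes at group-only regions are printed, 6 positive-only and then 3 negative-only. They were picked by hand, and 8 of the 9 hold a marked match, so they do not stand for such starts in general. Each run is the 250 bases before the RefSeq start on build GRCm38.p6, 5′ to 3′ on the gene's strand. Capitals mark a match to one of 10 short motifs searched on both strands: PU.1 (GAGGAAGT) in Fcgr4, Clnk and Rasgrp3, AP-1 (TGANTCA) in Fcer2a and Sh2d1b1, and CRE (TGACGTCA) in Gm31904, Flt1 and Fstl4. Cd79a holds no match in this window and has no capitals.
Cd79a: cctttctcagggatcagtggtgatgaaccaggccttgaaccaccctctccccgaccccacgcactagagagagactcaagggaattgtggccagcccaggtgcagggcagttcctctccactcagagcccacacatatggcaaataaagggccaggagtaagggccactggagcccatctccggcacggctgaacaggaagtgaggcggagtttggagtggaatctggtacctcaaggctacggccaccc
Fcer2a: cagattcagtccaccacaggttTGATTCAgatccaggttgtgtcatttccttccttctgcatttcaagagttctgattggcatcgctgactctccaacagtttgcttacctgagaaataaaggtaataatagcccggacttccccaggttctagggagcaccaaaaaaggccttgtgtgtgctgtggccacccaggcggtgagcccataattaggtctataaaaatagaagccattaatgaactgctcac
Sh2d1b1: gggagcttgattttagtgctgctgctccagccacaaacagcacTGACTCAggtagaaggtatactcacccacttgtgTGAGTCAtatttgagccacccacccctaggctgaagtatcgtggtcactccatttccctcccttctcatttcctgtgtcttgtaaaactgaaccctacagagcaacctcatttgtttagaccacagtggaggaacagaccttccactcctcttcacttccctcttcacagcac
Fcgr4: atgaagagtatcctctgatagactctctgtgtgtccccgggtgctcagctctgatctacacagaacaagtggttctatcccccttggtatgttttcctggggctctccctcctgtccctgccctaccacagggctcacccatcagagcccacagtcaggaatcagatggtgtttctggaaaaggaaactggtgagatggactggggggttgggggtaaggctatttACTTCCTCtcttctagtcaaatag
Clnk: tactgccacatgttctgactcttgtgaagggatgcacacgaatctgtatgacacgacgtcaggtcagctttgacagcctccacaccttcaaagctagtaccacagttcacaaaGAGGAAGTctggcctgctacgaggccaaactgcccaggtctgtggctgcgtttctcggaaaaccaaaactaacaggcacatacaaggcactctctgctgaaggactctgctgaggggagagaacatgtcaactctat
Rasgrp3: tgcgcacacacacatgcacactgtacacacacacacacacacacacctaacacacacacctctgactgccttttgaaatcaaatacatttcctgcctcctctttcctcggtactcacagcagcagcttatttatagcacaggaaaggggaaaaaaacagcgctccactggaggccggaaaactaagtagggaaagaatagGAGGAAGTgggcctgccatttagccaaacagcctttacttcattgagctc
Gm31904: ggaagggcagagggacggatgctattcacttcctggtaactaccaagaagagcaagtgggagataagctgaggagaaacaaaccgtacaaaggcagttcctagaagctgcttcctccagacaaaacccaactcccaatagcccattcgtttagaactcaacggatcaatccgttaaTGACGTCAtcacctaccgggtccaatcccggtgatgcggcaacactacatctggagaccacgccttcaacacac
Flt1: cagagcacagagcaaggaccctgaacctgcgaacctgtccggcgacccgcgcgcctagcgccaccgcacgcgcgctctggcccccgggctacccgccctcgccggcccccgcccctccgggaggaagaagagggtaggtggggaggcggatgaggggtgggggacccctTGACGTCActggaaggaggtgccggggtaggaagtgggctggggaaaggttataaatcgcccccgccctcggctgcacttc
Fstl4: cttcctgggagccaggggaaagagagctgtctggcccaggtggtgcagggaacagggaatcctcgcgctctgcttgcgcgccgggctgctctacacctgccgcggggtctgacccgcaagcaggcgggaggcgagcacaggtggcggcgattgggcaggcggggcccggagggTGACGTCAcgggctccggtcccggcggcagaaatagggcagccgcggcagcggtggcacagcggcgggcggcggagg

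These starts lie in regions whose coordinates are given as deposited, on mm10. Cd79a encodes the signalling chain of the B cell antigen receptor, and its positive-only region is chr7:24896293-24898109. Fcer2a encodes CD23, the low-affinity IgE receptor of B cells, at chr8:3692949-3694653. Sh2d1b1 encodes an adaptor of the SAP family, at chr1:170276847-170277684, and Fcgr4 an Fc receptor for IgG on myeloid cells, at chr1:171018513-171019375. Clnk encodes a signalling adaptor of immune cells, at chr5:38876202-38877246, and Rasgrp3 a Ras exchange factor that works downstream of the B cell receptor, at chr17:75435525-75436513. The negative-only regions are chr10:10234837-10235487 at Gm31904, chr5:147725136-147726188 at Flt1, a receptor for VEGF, and chr11:52764618-52765131 at Fstl4, a follistatin-like gene.

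Over the promoter windows that lay in positive-only regions, 15 of 179 held the PU.1 letters (8.38%), and in negative-only regions 4 of 70 (5.71%), against 3.20% of all 32851 windows of 300 bases. The octamer ATGCAAAT, which POU factors bind, was in 7 of 179 of these windows (3.91%) and in 0 of 70 windows in negative-only regions, against 1.74% of all windows. CRE was in 5 of 70 windows in negative-only regions (7.14%) and in 3 of 179 in positive-only regions (1.68%), against 1.79% of all windows. AP-1 was in 10 of 70 (14.3%) and in 18 of 179 (10.1%), against 7.81% of all. PU.1 is a factor of myeloid and B cells, AP-1 is induced by T cell activation, and CREB and ATF factors bind CRE. These shares describe letters in a window; they are not binding, several windows can belong to 1 gene, and the counts are small.

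The populations overlapped in the number of peaks. The genome background, the expected pileup that the deposited fold and pileup values imply away from peaks, was 3.785 and 2.406 in the positive libraries and 3.079 and 1.981 in the negative libraries. The plot of peaks against background shows the order of the 4 libraries to be the same on both measures. With 2 libraries a group the smallest p an exact two-sided permutation test can give is 0.333, and for the difference of 5760 peaks it gave p = 0.667. With depth matched the difference was 4365.5 peaks; it was 814 without positive 1, 10706 without positive 2, 9181 without negative 1 and 2339 without negative 2. Median peak length was 872 and 840 bp in the positive libraries and 867 and 840 bp in the negative libraries, and the exact permutation test gave p = 1.00. Peaks covered 64.5 and 52.0 Mb in the positive libraries and 56.4 and 47.5 Mb in the negative libraries. Both measures overlapped between the populations.

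**Figure D1:**
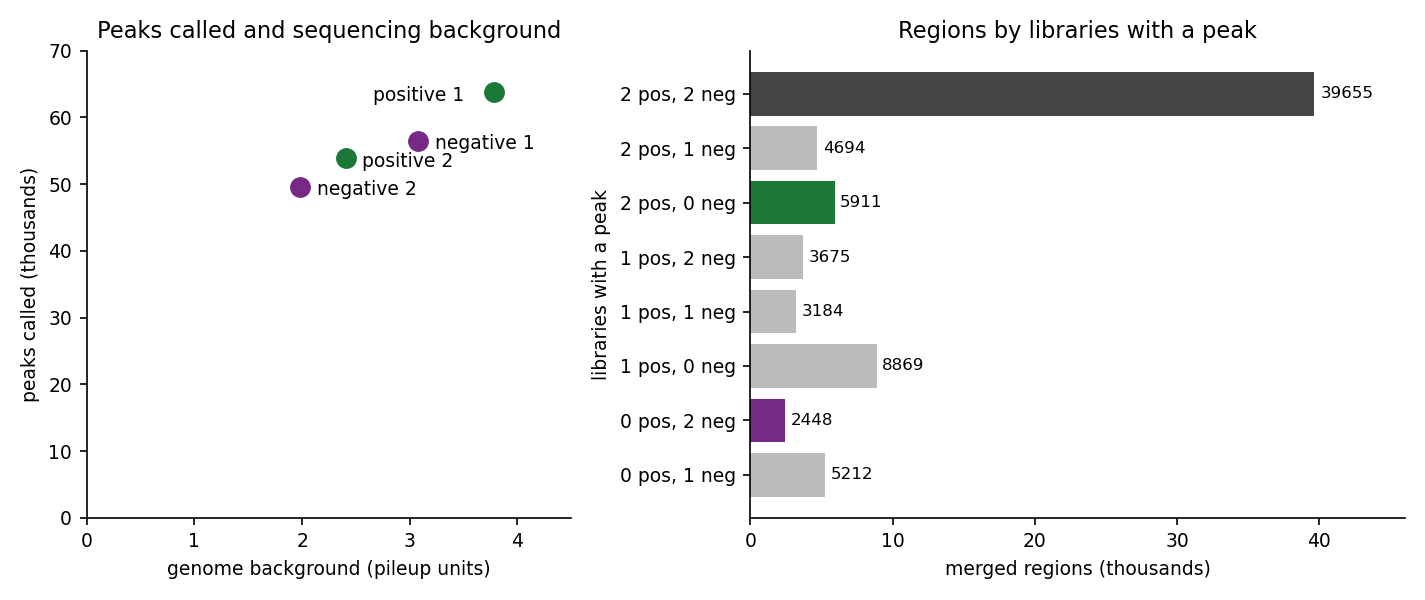
Left, peaks called in each in vitro library (axis in units of 1000 peaks) against the genome background of that library in pileup units, green for LC3-GFP positive and purple for LC3-GFP negative. Right, merged regions (same units) by how many positive and negative libraries had a peak in them; 39655 regions had a peak in all 4 libraries, 5911 in both positive libraries alone and 2448 in both negative libraries alone.

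Libraries of 1 population were nevertheless more alike than libraries of different populations. The Jaccard index, the length that 2 libraries' peaks share divided by the length either covers, was 0.693 between the positive libraries and 0.706 between the negative libraries. The 4 pairs of a positive with a negative library had 0.630, 0.596, 0.631 and 0.632. Both values within a population lay above all 4 between populations, and the difference of the means, 0.0771, was 0.0807 after depth was matched. Ranking the 39655 shared regions by the height of their summit gave Spearman correlations across regions of 0.966 and 0.964 within populations and 0.845 to 0.872 between them.

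The excess of positive-only over negative-only regions was close to the main value with depth matched and smaller or turned under some other settings. Both positive libraries were deeper than the negative library of the same number, by 1.23 and 1.21 times in genome background. With peaks filtered to what the shallowest library's depth could call, there were 5727 positive-only and 2777 negative-only regions, 67.3% of them positive-only against 70.7% as deposited. With the same number of best peaks from each library, 49634, there were 4460 and 3829, or 53.8% positive-only. In the pair positive 2 against negative 1, which drops a library from each population and in which the negative library was the deeper, 8942 regions were found in the positive library alone and 11700 in the negative library alone. With 1 library left out each class has 1 condition fewer to meet, and the counts rose: 13304 positive-only without positive 2, 9481 positive-only and 3703 negative-only without negative 1, 5468 negative-only without positive 1, and 6530 negative-only without negative 2. The part of depth in these counts was not tested beyond these values.

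Group-only regions were more often distal, and were weaker, than the shared regions. Promoters, taken as regions within 1 kb of a RefSeq gene start, made up 5.96% of positive-only regions (95% Wilson interval 5.38 to 6.59), 6.37% of negative-only regions (5.47 to 7.41) and 34.4% of shared regions. The median distance to the nearest gene start was 16174 bp, 15841 bp and 7009.5 bp in the same order. Median length was 743 bp for positive-only, 669.5 bp for negative-only and 1285 bp for shared regions. The 25634 regions outside these classes had 6.59% at promoters, a median distance of 15290.5 bp and a median length of 579 bp. Distance from a start and short length were thus not particular to group-only regions. The median summit of positive-only regions held 27 and 17 reads in the positive libraries, where shared regions held 57 and 41. Negative-only regions had 24 and 16 in the negative libraries, where shared regions had 53 and 38. The share of promoter peaks per library was 23.7% and 26.8% in the positive libraries and 26.1% and 28.6% in the negative libraries, and these ranges overlap. Positive-only regions lay on every autosome, from 6.76% of the regions of chromosome 15 to 9.10% of those of chromosome 1, and chromosome 15 had the highest negative-only share, 4.4%.

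The group-only regions that stood highest in their libraries were scattered over the genome. Standing is the lower of a region's 2 fold enrichment percentiles, each within its own library's list; 201 positive-only and 19 negative-only regions had a standing of at least 80. The 10 best positive-only regions in a gene lay in AW554918, Cds1, Lrba, Gm4070, Ppp1r1c, Gm36257, Gm35437, Supt3, Lmcd1 and LOC115488208. In Cds1, an enzyme of phospholipid synthesis, the region chr5:101793378-101794491 had fold enrichments of 8.90 and 9.31 and no peak in either negative library. In Lrba, a protein that guards CTLA-4 from lysosomal degradation, chr3:86394446-86395363 had 8.06 and 9.10, and its RNA was 134.8 and 135.1 CPM (counts per library total, scaled as CPM) in the positive against 116.5 and 112.3 CPM in the negative RNA libraries. Lrba RNA rose by 0.24 on the log2 scale (SE 0.051, edgeR quasi-likelihood test, adjusted p = 0.00236). The region at the start of Lmcd1, a LIM domain protein, chr6:112273413-112274750, had 7.31 and 8.18.

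The 10 best negative-only regions in a gene lay in Gm31035, Dhx32, Gm32070, Atrnl1, Clic5, 1700061F12Rik, Flt1, Gm30957, Hunk and Gm31904. In Dhx32, a helicase-like gene, chr7:133734197-133734865 had fold enrichments of 8.40 and 9.39 in the negative libraries and no peak in the positive ones. In Clic5, a chloride channel family member, chr17:44217404-44218342 had 8.61 and 7.78. Clic5 RNA was nevertheless higher in positive cells, 6.13 and 5.09 against 2.59 and 4.26 CPM, by 0.72 (SE 0.25, edgeR adjusted p = 0.0404). Hunk, a kinase, had 9.56 and 7.38 at chr16:90475625-90476343, with RNA from 1.26 to 2.03 CPM that did not pass the test.

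Of the 21544 genes with a region in the gene or 2 kb upstream, 3244 (15.1%) held at least 1 positive-only region and 1567 (7.27%) at least 1 negative-only region. The 5 genes with most positive-only regions were Tenm4 with 12 of its 25 regions, Hdac9 with 12 of 40, Prkce with 10 of 43, Arhgap24 with 10 of 19 and Lpp with 9 of 62. Tenm4 is a teneurin, Hdac9 a histone deacetylase, Prkce a protein kinase C and Arhgap24 a GTPase-activating protein; all 5 are genes of 490 kb or more. Bank1, Baz2b, Itpr2 and A930011G23Rik followed with 8 each. Lower in the order, and picked after their values were seen because they are B cell genes, Ebf1 held 7 of 46 and Lyn 6 of 19, counts that other genes matched or passed. The 5 genes with most negative-only regions were Zfhx3 with 6 of 20, Tgfbr3 with 5 of 22, Trat1 with 4 of 12, Tex2 with 4 of 15 and Ssbp3 with 4 of 23. Trat1 encodes a transmembrane adaptor that stabilises the T cell receptor, and Tgfbr3 a co-receptor for TGF-beta. Tgfbr3 RNA was higher in positive cells, 63.2 and 62.5 against 42.0 and 49.6 CPM (log2 0.46, edgeR adjusted p = 0.000279), while 10 of its 10 shared regions were lower by pileup rank.

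Of the 20 gene lists, the B cell list had the largest share of positive-only regions. The list held 12 genes, all with a region. It was meant as a check for cells other than CD8 T cells and was chosen with earlier results of these data known. Of its 82 regions, 16 were positive-only (19.5%) and 0 negative-only, where all 54578 gene-assigned regions had 7.42% and 3.12%. Ebf1 alone held 46 of the 82 regions. The positive libraries had peaks in 76 and 66 of the 82 regions and the negative libraries in 50 and 49. These counts do not overlap between the populations, while the whole peak lists do (63761 and 53869 against 56476 and 49634 peaks). The part of depth in these counts was not tested. In these bulk libraries a different share of cells of a type cannot be told apart from a difference within cells. The count of positive-only regions was 14 with depth matched, 9 with equal list lengths, 8 at −log10 q of at least 5 in both libraries and 27 without positive 2. In the pair where the negative library was the deeper, 22 of the regions were in the positive library alone and 4 in the negative library alone.

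The positive-only regions of the B cell list lay at 6 genes: 7 in Ebf1, 3 in Pax5, 3 in Blk, and 1 each at Cd79a, Fcer2a and Ms4a1. Ebf1 and Pax5 are the transcription factors that specify and hold B cell identity, and Blk is a Src kinase of the B cell receptor. At the start of Cd79a the summit held 95 and 69 reads in the positive libraries with fold enrichments of 2.5 and 2.93, and no peak was called in the negative libraries. The start of Fcer2a held 51 and 26 reads. The best-standing region of the list, chr14:63388767-63389631 in Blk, held 57 and 33 reads with fold enrichments of 5.64 and 5.37. None of these regions is strong by fold enrichment: apart from this Blk region and 1 in Ebf1, each had a standing under 20.

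**Figure D2:**
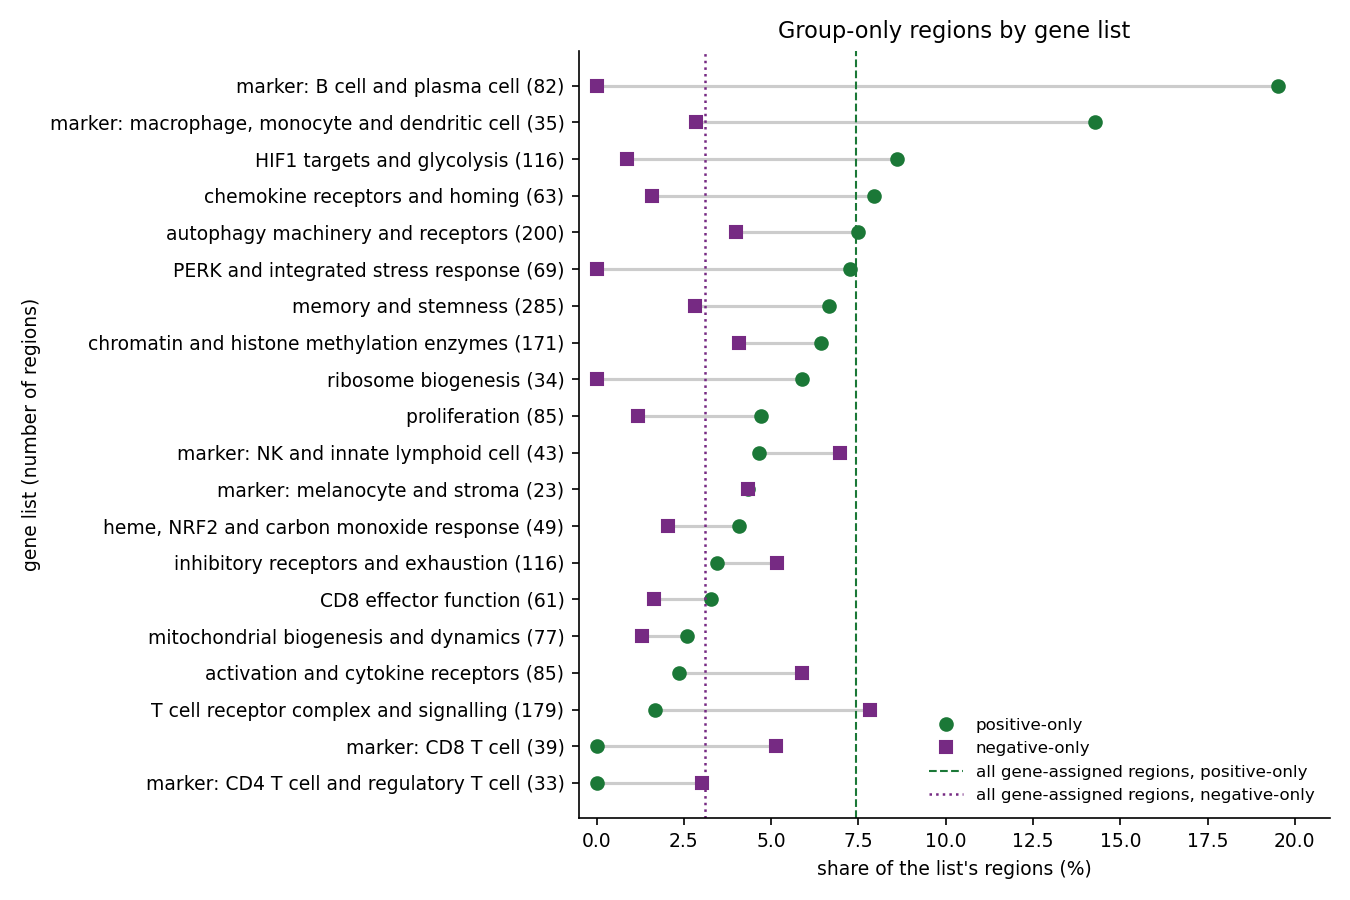
Share of each gene list's regions (%) that were positive-only (green circles) or negative-only (purple squares), with the number of regions in brackets; the dashed and dotted lines are the shares over all gene-assigned regions, 7.42% and 3.12%. The B cell list stands at 19.5% positive-only with 0 negative-only regions, and the T cell receptor list at 1.68% and 7.82%.

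T cell receptor genes showed the opposite order. Of the 179 regions at 22 genes of the receptor complex and its signalling, 3 were positive-only (1.68%) and 14 negative-only (7.82%). The positive libraries had peaks in 134 and 113 of them and the negative libraries in 156 and 137. These counts do not overlap between the populations, while the whole peak lists do (63761 and 53869 against 56476 and 49634 peaks). The part of depth in these counts was not tested either. Trat1 held 4 of the negative-only regions, Prkcq 3, Themis 2, and Cd2, Cd247, Cd6 and Fyn 1 each; Prkcq is the protein kinase C of the immune synapse and Themis a thymocyte selection factor. The 3 positive-only regions lay in Cd6, Ptprc and Skap1. The negative-only count was 15 with depth matched, 9 at −log10 q of at least 3, 5 at −log10 q of at least 5 in both libraries, 31 without positive 1 and 29 without negative 2. The positive-only count was 9 without positive 1, 10 without positive 2 and 9 without negative 1.

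The antigen receptor loci, looked at after these values were seen, differed among themselves. At the immunoglobulin kappa locus, 3.17 Mb at chr6:67555636-70726754, peaks lay in 56 and 41 of 62 regions in the positive libraries and in 16 and 13 in the negative libraries. Of these 62 regions 20 were positive-only and 0 negative-only, beside 8.03% and 3.32% of all regions. The immunoglobulin lambda locus had 4 positive-only and 0 negative-only of 15 regions, with peaks in 15 and 12 against 8 and 7. At the T cell receptor alpha and delta locus, 1.80 Mb at chr14:52427967-54224198, the positive libraries had peaks in 47 and 37 of 87 regions and the negative libraries in 78 and 52, with 2 positive-only and 8 negative-only. The T cell receptor beta locus had 1 and 5 of 35 regions. The immunoglobulin heavy chain locus did not share the order of the kappa locus: it had 4 positive-only and 9 negative-only regions of 91. The T cell receptor gamma locus went against the alpha, delta and beta loci, with 3 positive-only and 0 negative-only of 7 regions and peaks in 7 and 6 against 3 and 3. Receptor segments are near copies of each other, so reads there can be placed at a neighbouring segment.

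Among the 39655 shared regions, the size of the signal was compared by rank, since the libraries differ in depth. A region was called higher in positive cells when both its positive percentiles lay above both its negative percentiles and the means differed by at least 10 points. By fold enrichment, which divides the summit by its local background, 6270 regions were higher (15.8%) and 6313 lower (15.9%). By pileup, the reads at the summit, 6984 were higher (17.6%) and 7715 lower (19.5%). The rankings often differed: 3136 regions were higher by both and 2998 lower by both, while 403 were higher by fold and lower by pileup and 335 the reverse. At the 13635 shared promoter regions fewer were called on either rank, 9.7% higher and 11.9% lower by fold enrichment and 9.21% and 8.59% by pileup.

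The choice of rank turned the direction at lineage genes. The 46 shared regions of the B cell list were higher by pileup in 41 and lower in 0, where gene-assigned shared regions had 16.6% higher and 18.1% lower. Ebf1 alone held 22 of the 46 and 19 of the 41. By fold enrichment 4 of the 46 were higher and 13 lower, where gene-assigned shared regions had 14.8% and 15.5%. Their median difference was +32.07 points by pileup, −6.18 by fold enrichment and +36.95 by local background. The local background is worked out from the pileup and fold enrichment of the same peak, so its rank is not a separate measurement. The 94 shared regions of the T cell receptor list were lower by pileup in 61 and higher in 5, with medians of −14.79 points by pileup, +7.42 by fold enrichment and −15.48 by local background. For the 22 shared regions of the CD8 T cell marker list the medians were −15.16, +9.61 and −9.44 points.

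**Figure D3:**
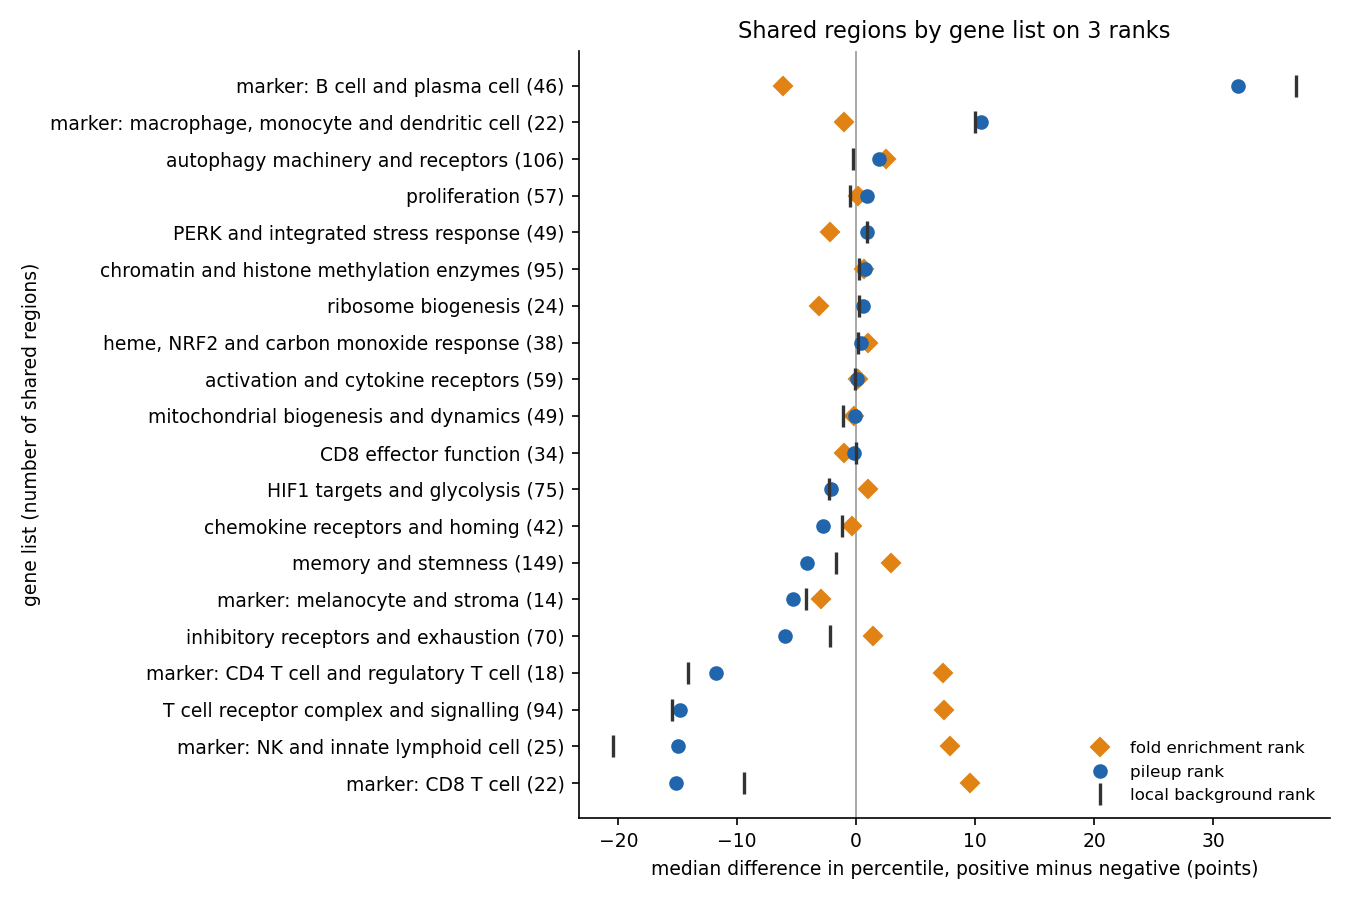
Median difference in percentile between positive and negative libraries (points) over the shared regions of each gene list, by pileup (circles), fold enrichment (diamonds) and local background (bars), with the number of shared regions in brackets. The B cell list lies at +32.07 points by pileup and −6.18 by fold enrichment; the CD8 T cell markers lie at −15.16 and +9.61.

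At the gene starts the per-library ranks separate cleanly for most of these genes. Of 9 B cell list starts with a shared region, 7 were higher by pileup and 0 lower, beside 9.21% and 8.59% of all shared promoter regions. By fold enrichment 0 of these 9 were higher and 4 lower, beside 9.7% and 11.9%. The start of Ms4a1, which encodes CD20, stood at pileup percentiles 78.7 and 70.8 in the positive libraries and 36.4 and 42.1 in the negative libraries, and Cd22, an inhibitory receptor of B cells, at 56.4 and 53.3 against 21.5 and 15.1. Positive libraries were higher in each case and did not overlap the negative ones. At Pou2af1, which encodes the B cell coactivator OCA-B, all 4 libraries stood between 99.4 and 99.7, so this start was open in both populations. Jchain had no region at its start.

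Of 20 T cell receptor list starts with a shared region, 17 were lower by pileup and 0 higher, beside the same 8.59% and 9.21%. By fold enrichment 6 of these 20 were higher and 1 lower, beside 9.7% and 11.9%. The start of Cd247, the CD3 zeta chain, stood at pileup percentiles 55.4 and 59.3 in the positive libraries and 93.3 and 89.9 in the negative libraries. Zap70, the kinase that docks on that chain, stood at 47.9 and 55.4 against 82.3 and 76.5, and Cd8b1 at 48.9 and 52.2 against 75.2 and 71.2. At Cd8a the percentiles were 13.6 and 26.2 against 36.4 and 33.6, at the low end of shared regions in all 4 libraries. The only shared region of Cd8a, and that of Cd8b1, was called higher by fold enrichment. Ptprc, Fyn and Cd5 were not called by pileup. The starts of Cd3d and Cd3g share 1 region, so these genes count that region each.

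**Figure D4:**
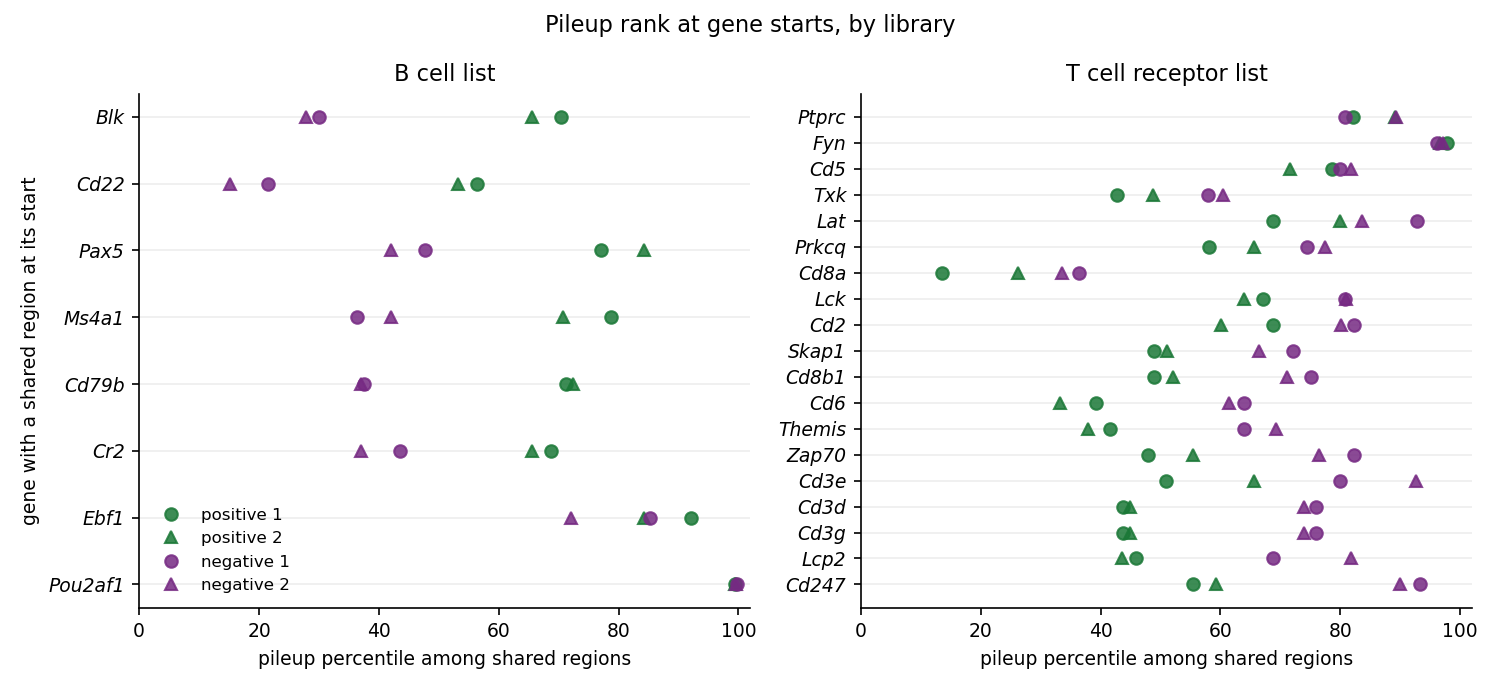
Pileup percentile among shared regions (0 to 100) at the starts of 8 genes of the B cell list (left) and 19 of the T cell receptor list (right), green for positive and purple for negative libraries, circles for replicate 1 and triangles for replicate 2. For 6 of the 8 B cell list starts both green points lie to the right of both purple points with means at least 10 points apart, and for 16 of the 19 T cell receptor list starts both lie to the left.

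RNA libraries of the same 2 populations, 2 each, held the B cell transcripts at low levels. The summed level of the B cell list was 19.4 and 17.1 CPM in the positive and 4.79 and 6.43 CPM in the negative RNA libraries, against 4149 and 4150 CPM and 4628 and 4547 CPM for the CD8 T cell list. Of its 7 tested genes 6 were higher in positive cells and 0 lower, and Pax5, Ebf1, Blk, Fcer2a and Cr2 were below the filter. Over all 12022 genes tested, 1362 were higher (11.3%) and 1638 lower (13.6%). Cd79a was at 2.06 and 2.01 CPM in the positive and 0.129 and 0.140 CPM in the negative libraries (log2 3.84, SE 0.58, edgeR adjusted p = 0.000103). The part of other cell types in the chromatin differences was not tested.

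The values of the other marker lists stand beside 7.42% positive-only and 3.12% negative-only over all gene-assigned regions. Of gene-assigned shared regions 16.6% were higher and 18.1% lower by pileup. The macrophage, monocyte and dendritic cell list had 5 positive-only and 1 negative-only of 35 regions, 11 higher and 0 lower by pileup of 22 shared regions, and peaks in 33 and 28 against 24 and 26 regions. Its RNA summed to 70.8 and 76.4 CPM in positive and 77.5 and 81.9 CPM in negative libraries; Cd74, whose product chaperones MHC class II, was at 16.3 and 14.6 against 0.841 and 1.33 CPM (log2 3.84, edgeR adjusted p = 9.04e-10), while Cd68 fell by 1.54 on the log2 scale. Of the 8 tested genes of this list 3 were higher and 2 lower in RNA, with a median log2 of −0.42. Csf1r, Lyz2, Adgre1, Cd14, Spi1 and Flt3 were below the RNA filter. The natural killer and innate lymphoid list had 2 positive-only and 3 negative-only of 43 regions, 4 higher and 16 lower by pileup of 25 shared regions, and its RNA summed to 43.4 and 41.1 against 79.5 and 79.7 CPM. The CD4 T cell list had 0 positive-only and 1 negative-only of 33 regions, 0 higher and 10 lower by pileup of 18 shared regions, and RNA of 681.4 and 666.5 against 629.1 and 699.7 CPM. The melanocyte and stroma list had 1 and 1 of 23, 1 higher and 5 lower by pileup of 14 shared regions, and RNA of 53.7 and 64.9 against 62.0 and 58.9 CPM.

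Genes of autophagy and of the PERK branch of the stress response, the processes named by the study, had group-only regions near the background. The autophagy list of 45 genes had 15 positive-only regions (7.50%) and 8 negative-only (4.00%) of 200. Atg5, part of the conjugation machinery that lipidates LC3, held 4 positive-only regions, and Optn, an autophagy receptor, held the best-standing one, chr2:5044887-5045840, with fold enrichments of 5.09 and 5.10. Atg7, the enzyme that activates LC3 for conjugation, held 4 of the 8 negative-only regions and 1 positive-only region. In RNA 0 of 44 tested genes of the list were higher and 10 lower, beside 11.3% and 13.6% of all tested genes. Atg5 RNA was 45.2 and 41.2 against 39.5 and 38.0 CPM and did not pass the test (edgeR adjusted p = 0.159). Of 42 autophagy starts with a shared region 0 were called by pileup in either direction; by fold enrichment 2 were higher and 4 lower. All shared promoter regions had 9.21% higher and 8.59% lower by pileup and 9.7% and 11.9% by fold enrichment. At the start of Map1lc3a, an LC3 gene, pileup percentiles were 91.5 and 99.4 against 92.7 and 94.5, and at Map1lc3b 98.3 and 86.7 against 97.2 and 89.9, which overlap. By fold enrichment Map1lc3b stood at 59.1 and 58.3 against 65.3 and 74.6, a lower call.

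The PERK and integrated stress response list had 5 positive-only regions of 69 (7.25%) and 0 negative-only. They lay at Eif2ak1, Ern1, Eif2s1, Nupr1 and Ppp1r15b, which encode the heme-regulated eIF2 kinase, the IRE1 sensor, the eIF2 alpha subunit, a stress-induced nuclear protein and a regulatory subunit of the eIF2 phosphatase. At the start of Eif2ak3, which encodes PERK, pileup percentiles were 90.8 and 91.0 against 92.1 and 95.4 and fold percentiles 47.4 and 53.7 against 43.3 and 62.2. Eif2ak3 RNA was 114.8 and 105.7 against 126.7 and 131.4 CPM (log2 −0.23, edgeR adjusted p = 0.00599). In RNA 2 of 30 genes of the list were higher and 14 lower, beside 11.3% and 13.6% of all tested genes. The start of Eif2ak3 was not called in chromatin, while its RNA was lower in positive cells.

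Among effector, checkpoint and memory genes the lists differed in their group-only shares, beside 7.42% positive-only and 3.12% negative-only over all gene-assigned regions. The effector list had 2 positive-only (3.28%) and 1 negative-only (1.64%) of 61 regions. The inhibitory receptor and exhaustion list had 4 positive-only (3.45%) and 6 negative-only (5.17%) of 116 regions, with 1 positive-only region each in Btla, Havcr2, Nr4a3 and Tox. The Havcr2 region, chr11:46480307-46480782 in the gene that encodes TIM-3, had fold enrichments of 3.34 and 3.82, while Havcr2 RNA was 32.9 and 32.5 against 74.0 and 63.1 CPM and fell by 1.07 on the log2 scale (edgeR adjusted p = 3.19e-08). The activation and cytokine receptor list had 2 positive-only (2.35%) and 5 negative-only (5.88%) of 85, both positive-only ones in Cd44. The memory and stemness list had 19 positive-only (6.67%) and 8 negative-only (2.81%) of 285, of which Foxp1, a factor of lymphocyte quiescence, held 7 and 1. At the start of Gzmb, the granzyme of cytotoxic granules, pileup percentiles were 46.9 and 57.3 against 96.5 and 86.9, a lower call, while Gzmb RNA did not pass the test (log2 −0.092, edgeR adjusted p = 0.171).

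The CD8 T cell marker list had 0 positive-only and 2 negative-only (5.13%) of 39 regions. For the 7 remaining lists, on heme and carbon monoxide response, HIF1 targets, mitochondria, proliferation, ribosome biogenesis, chromatin enzymes and homing, the share of positive-only regions ran from 2.60% for mitochondrial genes to 8.62% for HIF1 targets and glycolysis, whose 10 positive-only regions included 3 in Pfkfb3. Negative-only shares ran from 0% of 34 regions of ribosome biogenesis to 4.09% for chromatin enzymes. In all 20 lists shares rest on 23 to 285 regions.

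Of the 16 shared regions with the largest differences in fold rank, 13 lay away from a gene start and 3 at one. The largest positive difference was in Cacna1e, a calcium channel gene, at chr1:154645828-154646900, where fold percentiles were 99.5 and 97.0 against 20.99 and 20.59 and the summits held 62 and 45 against 15 and 11 reads. In order, the others with higher ranks lay in Gm39596, Rars2, Ccdc192, Crb1, Arfgap3, Gm40392 and Asap1. Among those with lower ranks, Fndc3b, a fibronectin domain gene, stood at fold percentiles of 31.3 and 6.73 against 87.9 and 91.6 at chr3:27431478-27432614. Others with lower ranks lay in Oxr1, Ank, Lingo1, Gm41029, Gm51570 and Galr1. Fndc3b RNA was 4.402 and 4.332 against 7.51 and 8.25 CPM and fell by 0.85 (edgeR adjusted p = 0.00281); Rars2, Arfgap3, Asap1, Oxr1 and Ank did not pass the test. By pileup, among gene-assigned regions looked at after their values were seen, the largest positive difference was in 9830107B12Rik and the largest negative one in Prkcq, chr2:11180523-11182384, with pileup percentiles of 36.9 and 40.8 against 93.3 and 80.1.

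Over all genes, classes that were negative-only or lower by pileup held a larger share of genes lower in RNA than all tested genes. Genes with positive-only and no negative-only regions, and those with a start higher by pileup, lay near the shares of all tested genes. Of 1525 tested genes with positive-only and no negative-only regions, 184 were higher in RNA (12.1%) and 217 lower (14.2%), beside 11.3% and 13.6% of all tested genes. Of 612 tested genes with negative-only and no positive-only regions, 59 were higher (9.64%) and 126 lower (20.6%). Genes whose start lay in a shared region lower by pileup had 8.48% higher and 22.7% lower of 554, and those higher by pileup 13.3% and 14.9% of 632. Genes with a negative-only region at the start had 1 higher and 9 lower of 25. Starts lower by fold had 12.7% higher and 11.4% lower of 1261. Other classes on the positive side held smaller shares of higher genes and larger shares of lower genes than all tested genes. Starts higher by fold had 8.10% higher and 20.6% lower of 840, genes with 3 or more positive-only regions 8.84% and 18.8% of 181, and genes with a positive-only region at the start 6 higher and 14 lower of 60. Without the RNA library positive 1 the 184 and 217 became 97 and 144 and the 59 became 29; without positive 2 the 184 became 110 and the 59 became 32. With DESeq2 in place of edgeR the 4 counts were 110, 143, 27 and 93.

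Regions were then sought in Vβ13+CD8+ T cells recovered from B16-F10 melanoma in C57BL/6 mice, 15 days after transfer of sorted positive or negative Pmel cells. The mice had carried the tumour for 12 days, and there were 4 libraries per group, 1 per mouse. A region counted as found when a tumour peak overlapped it by 1 bp. Shared regions were found in 58.3% to 70.6% in tumour libraries of positive cells and 69.1% to 75.4% in those of negative cells. Positive-only regions were found in 2.83%, 8.21%, 8.09% and 8.56% in the libraries of positive cells and in 9.61%, 33.6%, 7.44% and 5.99% in those of negative cells. Negative-only regions were found in 15.3%, 25.1%, 26.7% and 27.7%, and in 27.1%, 16.1%, 22.8% and 20.2%. Negative-only regions were thus found more often than positive-only regions in 7 of 8 tumour libraries, whichever population had been transferred; the exception was negative 2.

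The log2 ratio of the positive-only to the negative-only share was −1.87 ± 0.38 (SD, n = 4) in tumour libraries of positive cells and −0.95 ± 1.34 (SD, n = 4) in those of negative cells. An exact two-sided permutation test gave p = 0.200, with 0.0286 the smallest it can give, and an adjusted p of 0.400 over the 4 measures tested. Without the tumour library negative 2 the difference was −0.244 instead of −0.914 and the highest ratio was −1.50. That library stood apart: it had 55171 peaks where the other 7 had 27406 to 41435, and 71.4% of its peaks overlapped an in vitro region where the others had 90.25% to 94.98%. Of the 16 positive-only regions at B cell genes, 0 or 1 was found in each tumour library, and of the 14 negative-only regions at T cell receptor genes 0 to 6 were. In no tumour library were 57.9% of positive-only, 51.6% of negative-only and 11.4% of shared regions found.

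**Figure D5:**
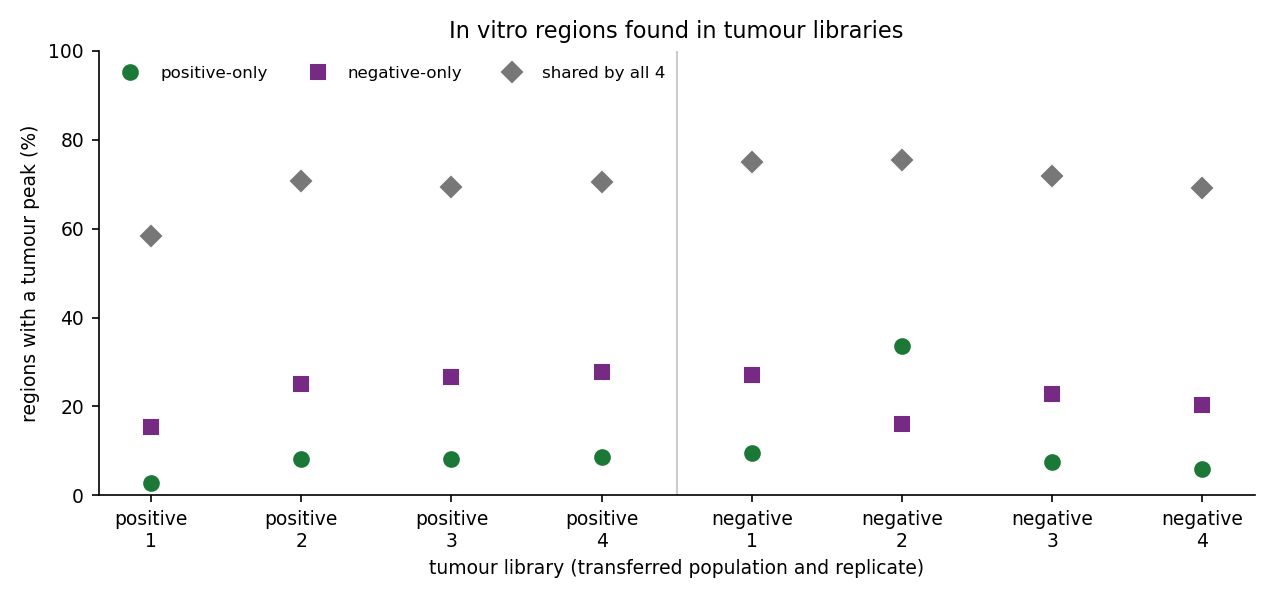
Share of in vitro positive-only (green circles), negative-only (purple squares) and shared (grey diamonds) regions (%) overlapped by a peak in each of 8 tumour libraries, 4 of transferred positive cells on the left and 4 of negative cells on the right. Positive-only shares lie between 2.83% and 9.61% except in negative 2, at 33.6%.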

How the data were processed

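The submitters' processing notes name cutadapt, BWA, STAR, MACS2, Partek and DESeq2 and the build mm10; versions, settings, the role of each tool and any shift of reads for the Tn5 insertion are not given in the sources used here. The deposited peak table lists, for each library separately, the authors' MACS2 peaks with summit pileup, fold enrichment and −log10 p and q. Deposited positions are given as they stand; whether starts count from 0 or 1 is not given. The deposited RNA table holds the authors' estimated counts per gene, which were rounded to whole numbers.

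Peaks sharing 1 bp or more were joined into regions, which were assigned to RefSeq genes extended 2 kb upstream. Percentiles were taken within each library over the shared regions. Fold enrichment was checked against the pileup: the p of all 223740 in vitro peaks lay within 0.001 of a Poisson tail, which gives each library's local and genome background. Library measures were compared by exact two-sided permutation tests, and RNA by edgeR 4.0.16 (quasi-likelihood, Benjamini-Hochberg, threshold 0.05) in R 4.3.3 on totals of 14567545 to 17557633 counts, with 12022 genes past the expression filter. DESeq2 1.42.0 was an alternative. Python 3.11.15 with pandas 2.3.3, numpy 2.4.6 and scipy 1.17.1 did the rest. Intervals cover counting error only. The scripts were tested on simulated data.

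The text names the 10 group-only regions of best standing in a gene per direction, the 5 genes with most group-only regions, the 8 shared regions with the largest rank difference, up to 6 genes per list, the 4 best group-only regions at a gene start, and Map1lc3a, Map1lc3b and Eif2ak3. The 9 printed starts were picked by hand. The members and lists were chosen with earlier results of these data known. Sequence under the peaks and exon positions were not used here. Some named items are not reported here.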

Additional observations from a re-analysis of the deposited data

Results flagged for a closer look

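All 5 results that stood apart from their group concern the search for in vitro regions in the tumour libraries, where the highest or lowest of 4 libraries was far from the other 3; chance does this in about 1 in 20 groups. In tumour libraries of negative cells, negative 2 held 33.565% of the positive-only regions, and its log2 ratio of positive-only to negative-only shares was 1.057, the only one above 0. In tumour libraries of positive cells, positive 1 held 2.825% of the positive-only and 58.315% of the shared regions, with a log2 ratio of −2.439. Positive 1 had the fewest peaks of the 8 libraries, 27406, and negative 2 the most, 55171. The part of depth in these values was not tested.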

How the results depend on the processing

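Of the values that answer a comparison, recomputed under the alternatives, 110 were counted as unchanged, 29 as moved and 2 as changed in sign. Counts of regions and genes have no direction, so their labels rest on size alone. For peak number, peak length and promoter share of peaks, the exact permutation test cannot give a p below 0.333. It could thus call no difference under any alternative, and only a change of sign was marked for these measures. Values counted as unchanged did not all keep their size. The difference of 5760 peaks was counted so at 814 without positive 1 and at 10706 without positive 2. The count of positive-only regions was 2887 with −log10 q of at least 5 in both libraries, and the count of negative-only regions 1071 there and 3829 at equal list length. In the pair positive 2 against negative 1, an alternative chosen after seeing the data like the depth-matched one, the counts were 8942 and 11700. With each library left out in turn they ran from 7068 to 13304 and from 3144 to 6530. The promoter share of positive-only regions was 7.05% where half-coverage of the merged region was required and 11.1% with promoters of 2.5 kb, and ran from 5.40% to 6.71% without 1 library; that of negative-only regions was 11.8% with 2.5 kb and ran from 6.17% to 7.55%. With 20 points required, 3005 shared regions were higher and 2947 lower. The difference in peak length ran from −13.5 to 18.5 bp without 1 library. By pileup in place of fold rank the medians were 32.07 points for the B cell list and −14.79 for the T cell receptor list. The highest tumour log2 ratio was −1.50 without the tumour library negative 2 and up to 1.32 with an in vitro library left out.

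In RNA, DESeq2 gave 110 higher and 143 lower among genes with positive-only regions and 27 higher among those with negative-only regions. With regions at gene starts alone the counts were 6, 14, 1 and 9. Without 1 RNA library they ran from 97 to 224, 144 to 246, 29 to 76 and 88 to 134. Causes of these shifts were not tested.

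Samples of the 2 populations share replicate numbers, but same-numbered libraries did not deviate together (correlations −0.029 by pileup, 0.062 by fold enrichment, 0.049 in RNA). With the replicate block an exact sign-flip test of the difference of 5760 peaks gave p = 0.5. This is the smallest that 2 pairs can give, so the test could not call a difference. With the block the RNA counts were 227, 251, 72 and 140.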
